A study of Homo sapiens with 8 samples.

Results

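Aminoacyl-tRNA synthetases attach each amino acid to its transfer RNA, the step that sets the genetic code before any peptide bond is made. Human cells keep separate nuclear-encoded enzymes for the cytosol (gene names ending in 1, with FARSA and FARSB as the subunits of the phenylalanyl enzyme) and for mitochondria (gene names ending in 2), where they serve the few proteins that mitochondria translate themselves. In the cytosol several synthetases sit together in the multisynthetase complex, held by the non-catalytic scaffold proteins AIMP1 and AIMP2. The genes described here are 19 cytosolic synthetases, 16 mitochondrial synthetases and these 2 scaffolds, chosen by gene symbol, 37 of the 15852 genes in the count table. Each of the 37 was found and had enough counts to be tested.

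Polyadenylated RNA was sequenced from KYSE150, an established line of esophageal squamous cell carcinoma, in 4 libraries with the genotype label Control and 4 with the label ShBOLA3-L, a knockdown of the L isoform of BOLA3. No treatment was given to either group. BOLA3 is a mitochondrial protein that helps pass iron-sulfur clusters to recipient enzymes, and the design contrasts cells with and without reduced BOLA3-L. The labels do not say how many hairpins or clones were used, or whether the libraries of a group came from separate cultures, so the p-values measure only the spread between these libraries.

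Depth ranged from 31178036 to 35147860 counts per library, and single members were counted between 161 (FARS2) and 25850 times (EPRS1) in a library. In CPM, the counts of a gene scaled to the normalized total of its library, BOLA3 (chromosome 2, 74135400 to 74147912 in GRCh38) had 21.6, 19.1, 20.5 and 21.8 in the control libraries, replicates 1 to 4 in this order here and below, and 6.06, 6.64, 6.33 and 7.29 in the knockdown libraries, a log2 change of -1.66 (SE 0.0821, adjusted p 6.89e-11, exact two-sided permutation p 0.0286, the smallest that 70 assignments allow). The counts are per gene, so the L isoform itself was not separated. Each of 8 squamous epithelial markers was counted in every library; 7 fell and EPCAM rose, and their summed level was 4884 to 4905 CPM in controls and 3159 to 3509 CPM after knockdown. Summed over 5 leukocyte markers the level was 0.632 to 1.21 CPM in controls and 0.588 to 0.824 CPM after knockdown, with CD3E at 0 in every control. For 5 endothelial markers it was 1.00 to 1.92 and 1.96 to 2.56 CPM, with PECAM1 at 0 in every control. For 6 fibroblast markers it was 9.73 to 14.6 and 3.90 to 6.83 CPM, most of it COL1A1 (11.7 and 4.80 CPM). The part of these shifts in the results below was not tested. Over all genes, 30.7% of those tested differed between the groups at an adjusted p under 0.05.

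BOLA3-L knockdown replicate 1 stood apart from the other knockdown libraries (20.1 on the second principal component against -10.1 to -4.81). Across the 37 members its deviation from the mean of knockdown replicates 2 to 4 ran against the GC content of the transcript (Pearson r -0.73, Spearman rho -0.75), as it did over 11054 genes (r -0.69, rho -0.75). The points share the same libraries, and the values are a description. GC-rich FARSA, SARS2 and VARS1 (60.3%, 61.2% and 62.6% GC) were low in that library by 0.34, 0.26 and 0.25 on the log2 scale. FARS2, at 55.4% GC and with the lowest count of the 37, was low by 0.38. At a like GC content QARS1 (55.2%) and YARS1 (55.7%) deviated by -0.07 and -0.02. MARS2, FARSB and IARS2 were high by 0.21, 0.18 and 0.16. The part of GC content in the differences between groups was not tested, and values without this library are given beside the members' log2 changes, medians and ratios that it moved by over 1.5 times and beside the calls that it changed.

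**Figure D1:**
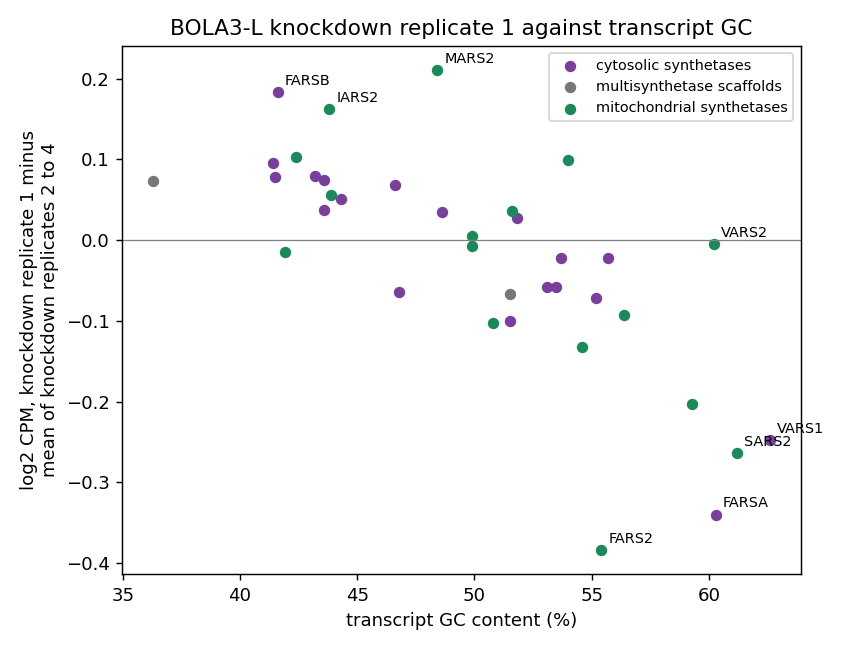
Deviation of BOLA3-L knockdown replicate 1 from the mean of knockdown replicates 2 to 4 (log2 CPM, vertical axis) against transcript GC content in percent (horizontal axis); each point is 1 of the 37 genes. The points fall from upper left to lower right (Pearson r -0.73), with FARSA at 60.3% GC lying 0.34 below zero and VARS2 at 60.2% GC near zero.

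After knockdown most cytosolic synthetases that changed were lower. The mitochondrial ones that changed went in both directions, as did all tested genes. Of the 37 genes 13 fell and 5 rose at an adjusted p under 0.05, or 35.1% and 13.5%, where 15.6% of all tested genes fell and 15.0% rose. Among the 19 cytosolic synthetases 9 fell (47.4%) and 1, LARS1, rose (5.3%), with a median log2 change of -0.09. Among the 16 mitochondrial synthetases 3 fell (18.8%) and 4 rose, with a median of 0.04, and the scaffold AIMP2 fell. The median of all tested genes was 0.00. Every change was small: the largest among the 37, that of SARS2, was 1.24-fold, and the smallest that passed the test, that of WARS1, was 1.065-fold. In bulk RNA, less RNA per cell and fewer cells that carry it cannot be told apart.

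How many genes passed depended on the libraries used. With knockdown replicate 1 left out, 14 of the 37 fell and 6 rose, where 21.5% of all tested genes fell and 21.2% rose. With control replicate 4 left out, 8 of the 37 fell, 5 of them cytosolic, and 13.2% of all tested genes fell. The number that rose was 2, all mitochondrial, with control replicate 3 left out (11.8% of all tested genes), and 3 with control replicate 2 (11.9%) or knockdown replicate 3 (12.6%) left out. Calls over all genes thus also became fewer in these fits. The mitochondrial median was 0.03 with control replicate 3 or knockdown replicate 4 left out. With offsets corrected for GC content 17 of the 37 fell and 5 rose, where 21.6% of all tested genes fell and 20.2% rose. In CPM, the 4 knockdown libraries lay beyond the 4 controls in 20 of the 37 genes, 16 below and 4 above. Of all tested genes 30.2% separated in this way, 15.6% below and 14.6% above.

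**Figure D2:**
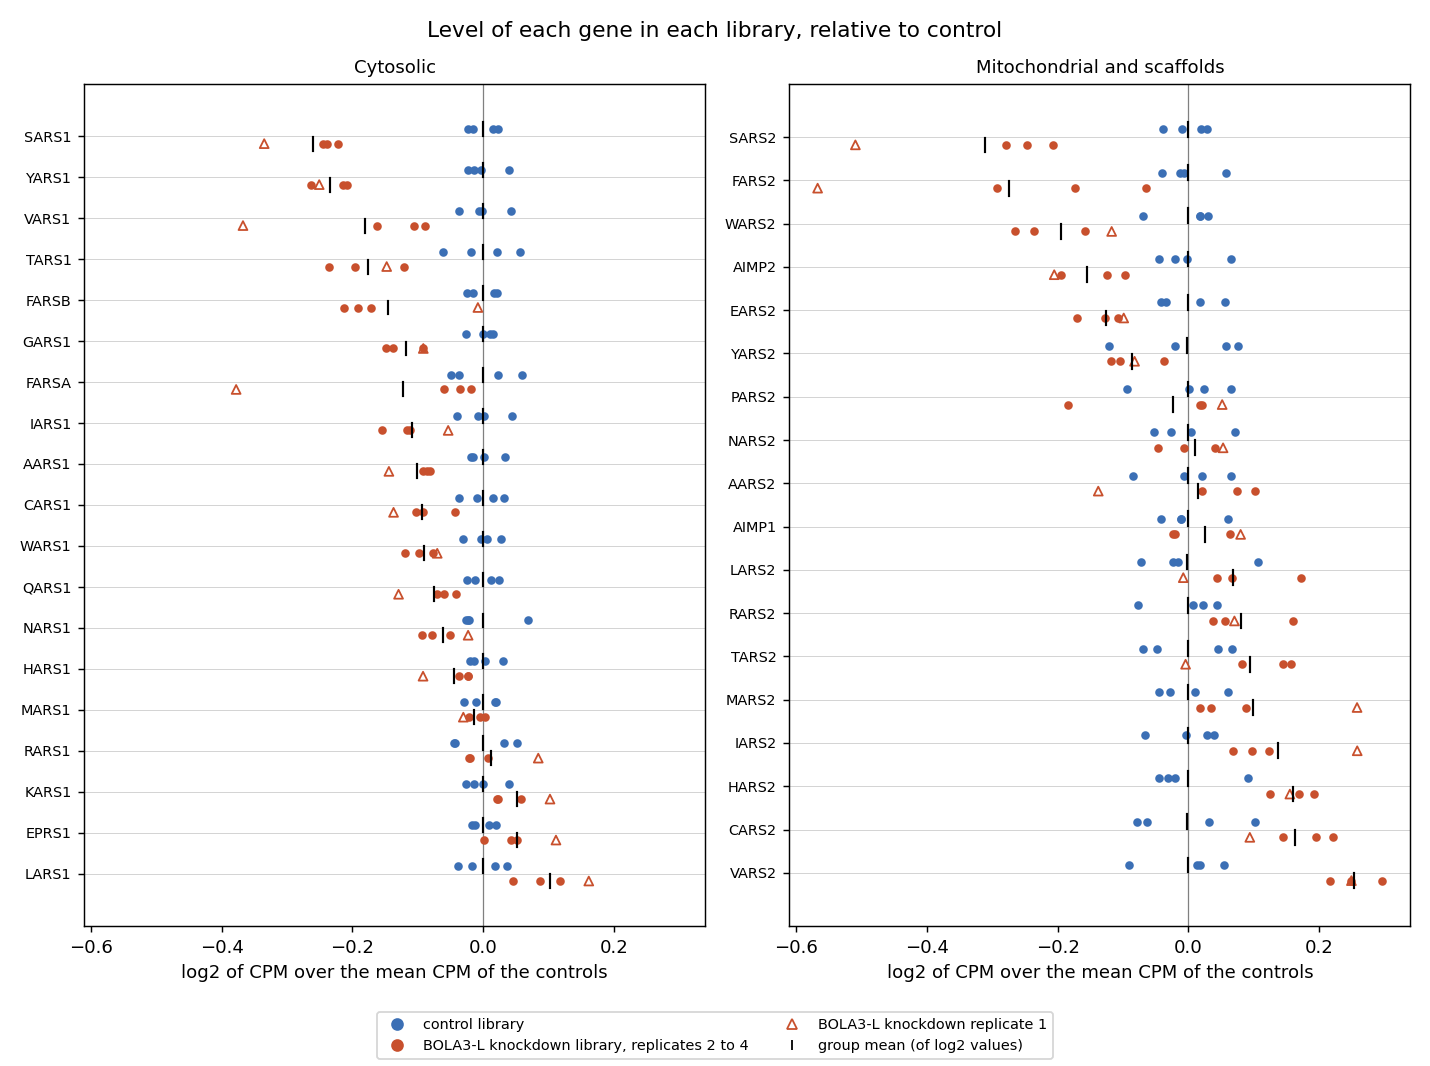
Level of each gene in each library, as the log2 of its CPM over the mean CPM of the controls (horizontal axis); circles are libraries, the open triangle is BOLA3-L knockdown replicate 1, and the black bar is the mean of each group of 4. Knockdown libraries lie left of the controls for SARS1, YARS1, TARS1 and GARS1 and right of them for VARS2.

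The cytosolic enzymes were the more abundant set. On the authors' FPKM scale, which corrects for gene length and depth, the control means of the cytosolic synthetases ran from 19.3 (FARSB) over a median of 104.7 (FARSA) to 232 (KARS1), and those of the mitochondrial ones from 1.13 (FARS2) over a median of 16.5 to 147.8 (IARS2). KARS1, the lysyl enzyme, which is also made in a mitochondrial form, had 238, 230.5, 228 and 232 FPKM in the controls and 254, 238.5, 239 and 245 FPKM in the knockdown libraries. Its groups did not differ by the test (log2 change 0.05, adjusted p 0.244). IARS2 alone made up 41.8% of the summed control FPKM of the mitochondrial set. The next mitochondrial genes in the order were HARS2 at 21.5 ± 0.949 FPKM and VARS2 at 20.8 ± 0.902 FPKM (SD, n = 4 each), which do not differ beyond their spread. Among cytosolic genes GARS1 followed KARS1 at 181 ± 2.24 FPKM, and MARS1 came next at 150.4 ± 2.385 FPKM. After it EPRS1 and SARS1, at 144 ± 1.65 and 143 ± 2.08 FPKM, lay within their spread of each other.

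Summed over the 19 cytosolic genes, the level was 2034 ± 16.6 FPKM in controls and 1962 ± 7.38 FPKM after knockdown (SD, n = 4 each), and every knockdown library (1953 to 1968) lay below every control (2019 to 2056). Summed over the 16 mitochondrial genes it was 353 ± 6.34 and 377 ± 9.41 FPKM (SD, n = 4 each), with every knockdown library (369.5 to 391) above every control (346 to 360.1). Without IARS2 the mitochondrial sums were 203 to 208 and 211 to 214 FPKM, again without overlap. The FPKM are scaled to library totals without TMM. In CPM the cytosolic sums were 5998 to 6123 in controls and 5748 to 5826 after knockdown. The mitochondrial sums were 1181 to 1228 and 1255 to 1318 CPM, also without overlap. Without IARS2 the mitochondrial groups lay closer together in CPM than in FPKM, relative to their level. These sums are descriptions and were given no test.

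**Figure D3:**
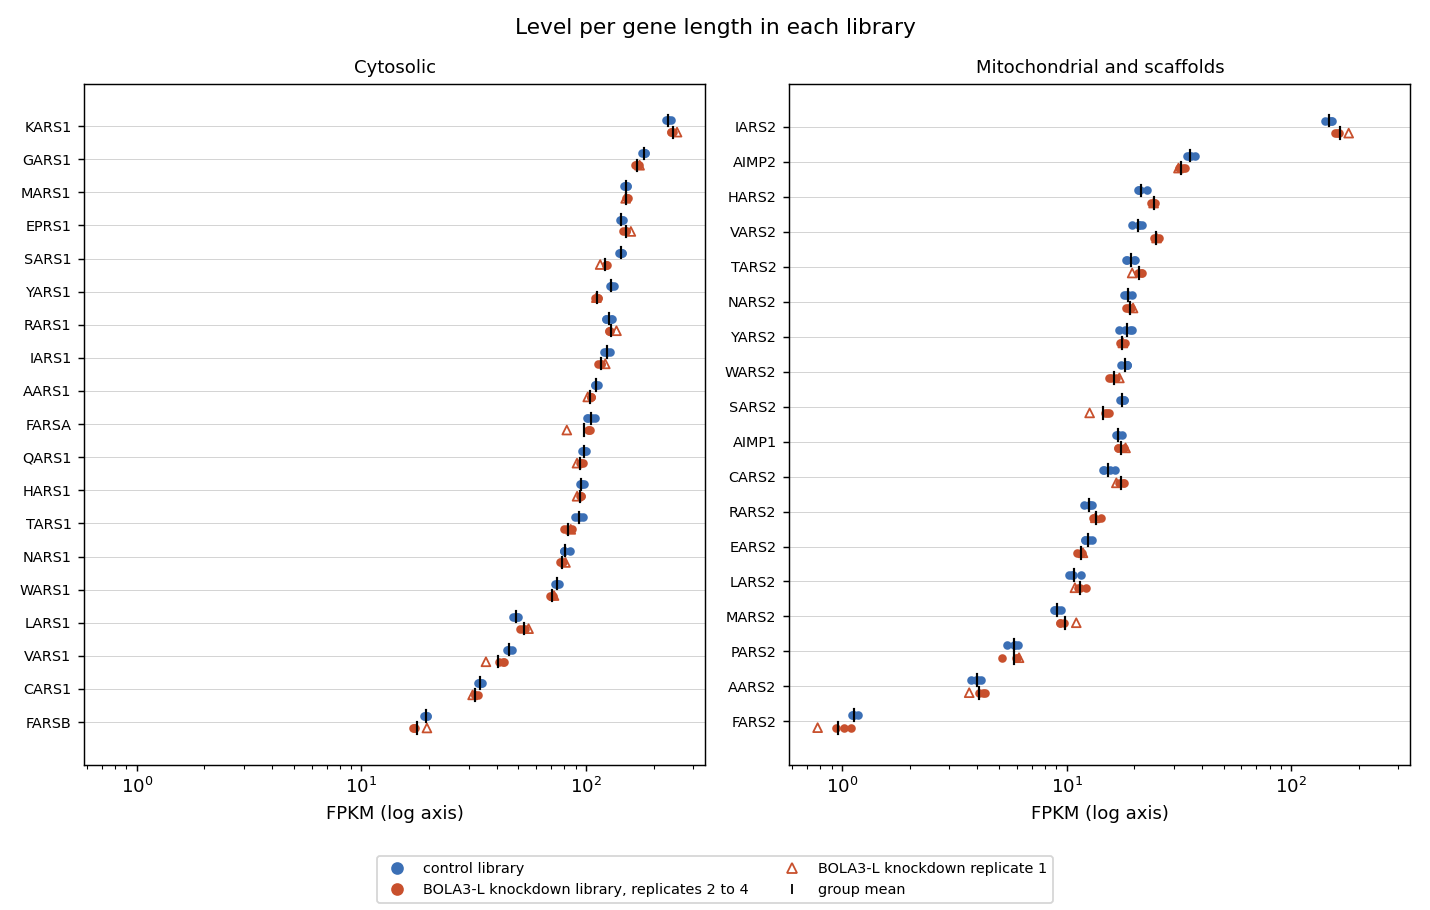
FPKM of each gene in each library on a log axis (horizontal), genes ordered by control mean; circles are libraries, the open triangle is BOLA3-L knockdown replicate 1, and the black bar is the group mean. The cytosolic genes have a median of 104.7 FPKM and the mitochondrial ones of 16.5, and IARS2 at 147.8 in controls stands apart from the other mitochondrial genes.

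Of the 9 cytosolic synthetases that fell, 8 are among the 12 that are not part of the multisynthetase complex. None of the 12 rose with edgeR (0 also before adjustment at 0.05 and 0 with DESeq2), their median log2 change was -0.12, and each of the 12 had a value below zero. With knockdown replicate 1 left out, 9 fell, where 21.5% of all tested genes fell, against 15.6% with every library. Of the 7 cytosolic synthetases in the complex 1 fell and 1 rose, with a median of 0.01, and of -0.01 with that library left out. The difference between these subsets was not tested.

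SARS1, the seryl-tRNA synthetase (identifier 6301, chromosome 1, 109213893 to 109238182), had 294, 286, 292 and 284.5 CPM in the controls and 229, 248, 244 and 245 CPM in the knockdown libraries. The knockdown libraries lay below the controls by a wide margin, with replicate 1 the lowest. SARS1 fell by 0.26 on the log2 scale (SE 0.0353, adjusted p 2.24e-05), or 16.4%, the smallest p among the 37 genes, and by 0.23 with knockdown replicate 1 left out (adjusted p 4.55e-10).

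YARS1, the tyrosyl enzyme (identifier 8565, chromosome 1, 32775239 to 32817358), stood at 335, 323, 325 and 321 CPM in controls and at 274, 282, 271.5 and 281 CPM after knockdown. Its knockdown libraries were close together and all below the controls, and it fell by 0.23 (SE 0.0329, adjusted p 3.18e-05). TARS1, the threonyl enzyme (identifier 6897, chromosome 5, 33440696 to 33468091), stood at 279, 265, 257 and 272 CPM in controls and at 242, 247, 234 and 228 CPM after knockdown. It fell by 0.17 (SE 0.0379, adjusted p 0.0018). GARS1, the glycyl enzyme that serves the cytosol and mitochondria from a single gene (chromosome 7, 30594735 to 30634033), stood at 496, 490.3, 494 and 482 CPM in controls and at 460.3, 460.3, 442 and 446 CPM after knockdown. It fell by 0.12 (SE 0.0312, adjusted p 0.00796). SARS1, YARS1, TARS1 and GARS1 kept their calls in every alternative tried.

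VARS1, the valyl enzyme (identifier 7407, chromosome 6, 31777518 to 31795752), stood at 179, 175, 185 and 179 CPM in controls and at 139, 160.3, 167 and 169 CPM after knockdown. The fall was 0.18 on the log2 scale with all libraries (SE 0.0501, adjusted p 0.0117) and 0.12 with knockdown replicate 1 left out (adjusted p 0.00114), so that library moved its size by over 1.5 times. With limma on log2 FPKM and no minimum the fall of VARS1 did not pass.

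The phenylalanyl enzyme is built from the catalytic subunit FARSA and the subunit FARSB. Among the knockdown libraries replicate 1 was the low one for FARSA and the high one for FARSB. FARSB stood at 182, 177, 176 and 181 CPM in controls and at 178, 157, 154 and 159 CPM after knockdown, so replicate 1 lay within the controls and the other 3 below them. It fell by 0.14 (SE 0.0435, adjusted p 0.0171), and by 0.19 with that library left out (adjusted p 5.15e-07). Its call was lost when control replicate 1 or 4 or knockdown replicate 2 or 3 was dropped (adjusted p 0.0511 to 0.0651). FARSA stood at 194, 199, 186 and 185 CPM in controls and at 147, 186, 183 and 189 CPM after knockdown. Its log2 change was -0.12 (adjusted p 0.18), and -0.04 with replicate 1 dropped (adjusted p 0.342).

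AARS1, the alanyl enzyme, stood at 382.5, 377, 378 and 391 CPM in controls and at 346, 359, 360.1 and 361 CPM after knockdown, with no overlap, and fell by 0.10 (adjusted p 0.0237). That call was lost without control replicate 1, 3 or 4 (adjusted p 0.0509 to 0.0767). WARS1, the tryptophanyl enzyme, which is also induced by interferon, stood at 220.1, 219, 223 and 215 CPM in controls and at 209, 202, 205 and 208 CPM after knockdown. It fell by 0.09 (adjusted p 0.0489) and lost its call when any single control or knockdown replicate 2, 3 or 4 was dropped (adjusted p 0.0588 to 0.144). The other 3 of these 12 did not pass: CARS1 (cysteinyl) had a log2 change of -0.09, NARS1 (asparaginyl) of -0.06 and HARS1 (histidyl) of -0.04 (-0.03 with knockdown replicate 1 dropped). In CPM every knockdown library of CARS1 and HARS1 lay below every control, for HARS1 narrowly (184.2 against 184.6 CPM). In FPKM the groups overlapped for both genes. NARS1 passed when knockdown replicate 1 was dropped (log2 change -0.07, adjusted p 0.0354).

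In the multisynthetase complex, LARS1, the leucyl enzyme and a leucine sensor of the mTORC1 pathway (identifier 51520, chromosome 5, 146113034 to 146182650), stood at 240.3, 234.5, 231 and 243 CPM in controls and at 265.5, 252, 257.5 and 245 CPM after knockdown. The groups did not overlap, although knockdown replicate 4 was close to the highest control. LARS1 rose by 0.10 (SE 0.0361, adjusted p 0.0365), a call lost when control replicate 1, 2 or 3 or knockdown replicate 2 or 3 was dropped (adjusted p 0.0602 to 0.127). IARS1, the isoleucyl enzyme (chromosome 9, 92210207 to 92293697), stood at 597, 583.5, 601 and 619 CPM in controls and at 578, 555, 553 and 539 CPM after knockdown. It fell by 0.11 (SE 0.033, adjusted p 0.0174), and its call was lost when control replicate 3 or 4 or knockdown replicate 4 was dropped (adjusted p 0.0518 to 0.0664).

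The other synthetases of the complex did not pass the test. EPRS1, which joins glutamyl and prolyl enzymes in a single protein and had the highest counts of the 37, had a log2 change of 0.05 (707 ± 8.52 against 733 ± 23.1 CPM, SD, n = 4 each). KARS1 had 0.05, RARS1 (arginyl) 0.01, MARS1 (methionyl) -0.01 and QARS1 (glutaminyl) -0.08. In CPM every knockdown library of QARS1 lay below every control, but in FPKM its groups overlapped. EPRS1 had 0.03 and RARS1 and MARS1 each had -0.01 with knockdown replicate 1 dropped. Of the scaffolds, AIMP2 (identifier 7965, chromosome 7, 6009272 to 6023834) stood at 79.3, 75.7, 74.7 and 73.5 CPM in controls and at 65.8, 69.5, 66.3 and 70.9 CPM after knockdown, without overlap. It fell by 0.15 (SE 0.0446, adjusted p 0.0132), a call lost without control replicate 1 (adjusted p 0.0569). Exons of EIF2AK1 on the opposite strand cover 28.9% of the exon bases of AIMP2, so its value is uncertain if strand was not used in counting. AIMP1, the second scaffold and the source of the cytokine EMAPII, had a log2 change of 0.03 (adjusted p 0.699), and 0.01 with knockdown replicate 1 dropped.

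Among mitochondrial synthetases VARS2, the valyl enzyme (identifier 57176, chromosome 6, 30914238 to 30926459), rose most. It stood at 70.3, 75.5, 77.7 and 75.8 CPM in controls and at 89.0, 87.0, 91.9 and 88.9 CPM after knockdown. The knockdown libraries were close together and clear of the controls, and the log2 change was 0.25 (SE 0.0436, adjusted p 0.000239), or 19.2%. It kept its call in every alternative tried. Exons of GTF2H4 on the same strand cover 22.0% of its exon bases, so its value is uncertain to that extent.

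IARS2, the isoleucyl enzyme (identifier 55699, chromosome 1, 220094132 to 220148041), stood at 536, 502, 524 and 540.1 CPM in controls and at 628.5, 562, 572 and 551 CPM after knockdown. Replicate 1 was the highest of the knockdown libraries. IARS2 rose by a log2 change of 0.14 (SE 0.0403, adjusted p 0.0135) and by 0.10 with knockdown replicate 1 dropped (adjusted p 0.00192), and its call was lost when control replicate 2 was dropped (adjusted p 0.0569). HARS2, the histidyl enzyme (chromosome 5, 140691455 to 140699305), stood at 52.7, 51.8, 52.3 and 56.9 CPM in controls and at 59.5, 61.1, 60.1 and 58.3 CPM after knockdown. It rose by 0.16 (SE 0.0466, adjusted p 0.0135) and lost its call when control replicate 3 was dropped (adjusted p 0.0504). HARS2 and HARS1 start head to head, and exons of HARS1 on the opposite strand and of ZMAT2 on the same strand cover 15.8% of the exon bases of HARS2. CARS2, the cysteinyl enzyme, stood at 67.7, 64.5, 60.4 and 59.8 CPM in controls and at 67.3, 69.8, 72.2 and 73.5 CPM after knockdown, so the groups overlapped in replicate 1 of each. It rose by 0.17 (adjusted p 0.0169), a call lost when replicate 3 or 4 of either group was dropped (adjusted p 0.0504 to 0.07).

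WARS2, the tryptophanyl enzyme (identifier 10352, chromosome 1, 119031216 to 119140672), stood at 61.4, 60.9, 57.4 and 60.9 CPM in controls and at 55.5, 53.9, 50.04 and 51.0 CPM after knockdown. It fell by 0.19 (SE 0.0484, adjusted p 0.00518), and kept its call in every alternative tried. SARS2, the seryl enzyme (identifier 54938, chromosome 19, 38915266 to 38930763), stood at 33.5, 34.2, 35.1 and 34.9 CPM in controls and at 24.2, 29.8, 28.99 and 28.3 CPM after knockdown. It fell by 0.31 (SE 0.0632, adjusted p 0.00125), the largest change of the 37, and by 0.24 with knockdown replicate 1 dropped (adjusted p 0.000148). The value is uncertain, since 70.0% of the 75-base windows of its transcript also occur in transcripts of another annotated gene at the same locus. EARS2, the glutamyl enzyme, stood at 70.0, 74.9, 70.4 and 73.0 CPM in controls and at 67.3, 64.0, 66.0 and 66.9 CPM after knockdown. It fell by 0.13 (adjusted p 0.0339) and lost its call when replicate 2, 3 or 4 of either group was dropped (adjusted p 0.0507 to 0.122).

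The other 9 mitochondrial synthetases did not pass. FARS2, the phenylalanyl enzyme and the lowest of the set, stood at 7.53, 7.36, 7.496 and 7.87 CPM in controls and at 5.10, 7.23, 6.71 and 6.17 CPM after knockdown. Its log2 change of -0.26 had an adjusted p of 0.0852 with a standard error of 0.111, and it was -0.17 with knockdown replicate 1 dropped. It passed when knockdown replicate 2 was dropped (log2 change -0.33, adjusted p 0.0475). TARS2 (threonyl) had a log2 change of 0.10 (adjusted p 0.164), and passed when knockdown replicate 1 was dropped (log2 change 0.13, adjusted p 0.0122). MARS2 (methionyl) had 0.10, RARS2 (arginyl) 0.08, LARS2 (leucyl) 0.07, AARS2 (alanyl) 0.02 and NARS2 (asparaginyl) 0.01. PARS2 (prolyl) had -0.02 and YARS2 (tyrosyl) -0.09. Dropping knockdown replicate 1 gave 0.05 for MARS2, 0.07 for AARS2, -0.00 for NARS2 and -0.04 for PARS2, and these did not pass either.

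**Figure D4:**
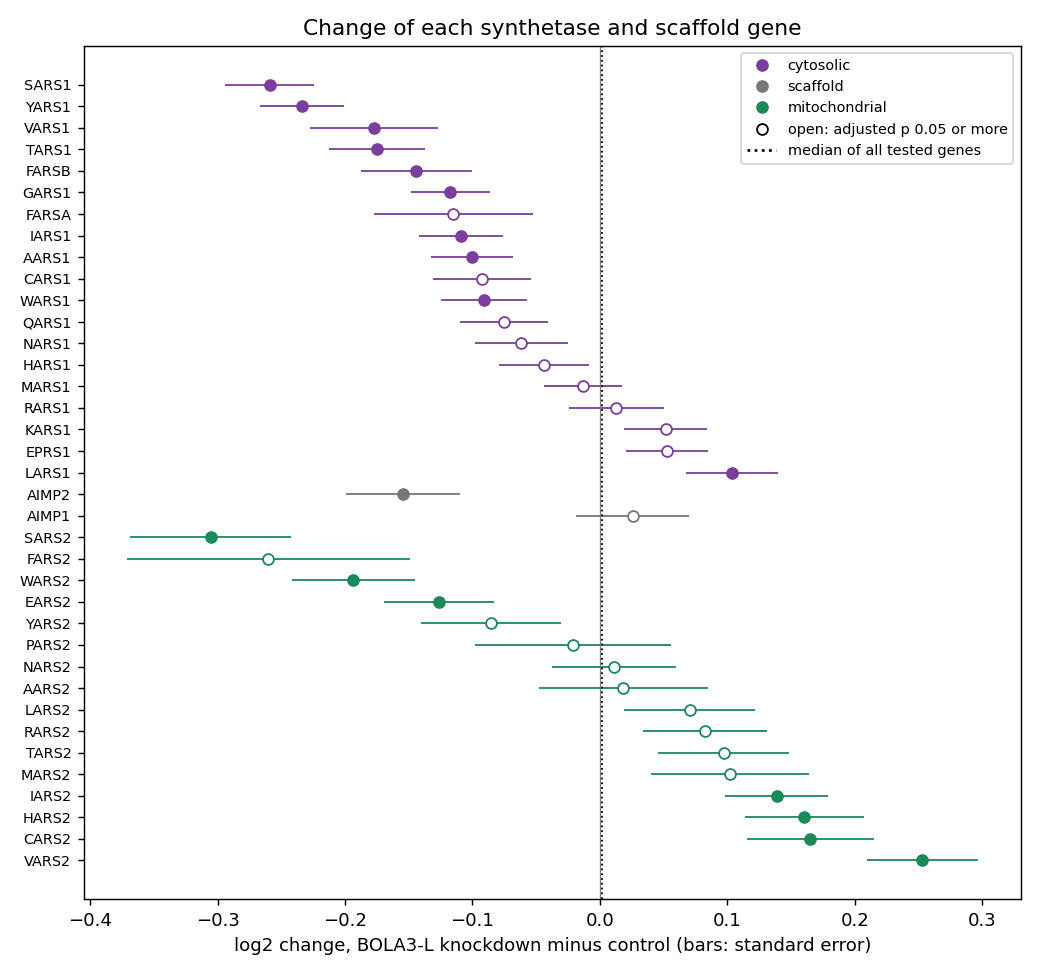
Log2 change of each gene, BOLA3-L knockdown minus control (horizontal axis), with its standard error; purple marks cytosolic synthetases, grey scaffolds and green mitochondrial synthetases, and open points have an adjusted p of 0.05 or more. Filled cytosolic points lie below zero except LARS1 at 0.10, and filled mitochondrial points lie on both sides, from -0.31 (SARS2) to 0.25 (VARS2).

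For 13 amino acids the cytosolic and mitochondrial enzymes are separate genes of the same name, so their levels were set against each other in each library as a log2 ratio of FPKM. In 12 of the 13 the cytosolic gene stood higher, from 2.19-fold for VARS1 over VARS2 to 27.8-fold for AARS1 over AARS2 in controls. The exception was isoleucine, where IARS1 stood at 0.84 times IARS2 in controls and at 0.708 times after knockdown. In 7 pairs the ratio was lower in every knockdown library than in every control, in 0 it was higher in every one, and in 6 the groups overlapped. With knockdown replicate 1 dropped these numbers were 9, 0 and 4. The ratios were given no test, and no share of separated ratios was computed for other pairs of genes. Of single tested genes 30.2% separated with every library. The ratios hold the same values as the members' falls and rises above, so they are not separate evidence.

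The VARS1 to VARS2 ratio moved most, from 1.13 ± 0.0584 in controls to 0.69 ± 0.125 after knockdown (log2 ratio, SD, n = 4 each), a difference of -0.44, and of -0.37 with knockdown replicate 1 dropped. In single libraries it was 1.21, 1.08, 1.12 and 1.11 in controls and 0.51, 0.75, 0.73 and 0.79 after knockdown. The TARS1 to TARS2 ratio differed by -0.27, CARS1 to CARS2 by -0.26, IARS1 to IARS2 by -0.25, HARS1 to HARS2 by -0.21, YARS1 to YARS2 by -0.15 and NARS1 to NARS2 by -0.07, each without overlap. Both seryl genes fell, and their ratio differed by 0.05 with overlapping groups, and by 0.01 with knockdown replicate 1 dropped. Both tryptophanyl genes fell as well, with a difference of 0.10 and overlap. The groups also overlapped for AARS1 to AARS2 (-0.12), MARS1 to MARS2 (-0.11), RARS1 to RARS2 (-0.07) and LARS1 to LARS2 (0.03). With that library dropped the MARS1 to MARS2 difference was -0.055 and that of LARS1 to LARS2 was -0.01, and the alanyl and arginyl pairs no longer overlapped (-0.15 and -0.10).

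**Figure D5:**
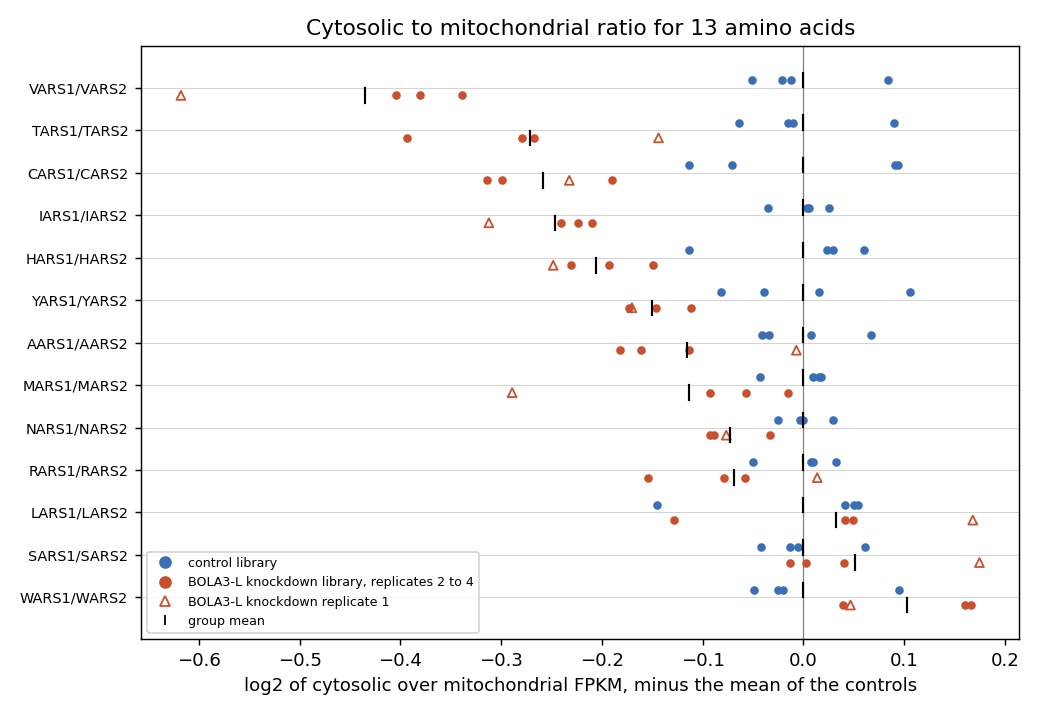
Log2 ratio of cytosolic to mitochondrial FPKM for 13 amino acids in each library, minus the mean of the controls (horizontal axis); circles are libraries, the open triangle is BOLA3-L knockdown replicate 1, and the black bar is the group mean. The knockdown libraries lie left of the controls for 7 pairs, most for VARS1/VARS2 at a mean of -0.44, and overlap them for the other 6: AARS1/AARS2, MARS1/MARS2, RARS1/RARS2, LARS1/LARS2, SARS1/SARS2 and WARS1/WARS2.

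Many cytosolic synthetases are known targets of ATF4, the transcription factor of the amino acid and integrated stress response, which binds composite elements that hold TGATGNAA. Of 11 synthetases listed as such targets (AARS1, CARS1, EPRS1, GARS1, IARS1, MARS1, NARS1, SARS1, TARS1, WARS1 and YARS1) 7 fell and 0 rose with edgeR (0 also before adjustment at 0.05 and 0 with DESeq2), with a median log2 change of -0.10. Of the other 8 cytosolic synthetases 2 fell and 1 rose, with a median of -0.06. With knockdown replicate 1 dropped, 8 of the 11 and 2 of the 8 fell, and the medians were -0.10 and -0.03. Of all tested genes 15.6% fell with every library and 21.5% with that library dropped.

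The TGATGNAA letters were searched on both strands of RefSeq promoter windows (GRCh38.p14, 250 bases before to 50 after a start), where 32 of the 37 genes have an entry (AARS2, LARS1, VARS1, VARS2 and YARS1 have none). A match stood in a window of 8 of these 32 genes, and in 4.46% of the 27305 genes of the table. The matches are shown because 7 of the 8 are in cytosolic synthetases of the ATF4 list and 4 of those genes fell. This choice was made with the changes known. The list holds known ATF4 targets, so matches there could be foreseen whatever the changes. The part of ATF4 in the falls was not tested. Each is printed 5′ to 3′ on the strand that reads TGATGNAA, in capitals, with the 11 bases on either side in lower case.
AARS1: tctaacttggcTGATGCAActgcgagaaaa
CARS1: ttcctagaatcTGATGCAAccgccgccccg
GARS1: ggctcggagcaTGATGAAAtcgccgcgtaa
IARS1: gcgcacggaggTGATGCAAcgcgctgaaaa
MARS1: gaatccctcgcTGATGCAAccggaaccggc
NARS1: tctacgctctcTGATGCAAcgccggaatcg
TARS1: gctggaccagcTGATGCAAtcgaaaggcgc
YARS2: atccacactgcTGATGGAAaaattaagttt

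These windows are chr16:70289675-70289704 (plus strand), chr11:3057407-3057436 (plus), chr7:30594834-30594863 (minus), chr9:92293692-92293721 (plus), chr12:57488053-57488082 (minus), chr18:57621804-57621833 (minus), chr5:33440956-33440985 (minus) and chr12:32756076-32756105 (minus), in the order of the lines. The matches of CARS1, IARS1, MARS1 and TARS1 lie within 13 bases of a listed start. That of GARS1 begins 33 bases before a listed start, and those of AARS1 and YARS2 begin 187 and 197 bases before. That of NARS1 begins at base 15 of the transcript. These starts are not always the gene bounds given above, since the GARS1 and TARS1 matches lie inside those bounds, after their first base. Of the 8 genes with a match AARS1, GARS1, IARS1 and TARS1 fell and 0 rose (0 also before adjustment at 0.05 and 0 with DESeq2). Of the 24 genes with an entry and no match 7 fell and 3 rose, and of all tested genes 15.6% fell and 15.0% rose. SARS1, which had the smallest p, has no match in its windows, which says only that these letters are not there.

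ATF4 itself fell by 0.11 on the log2 scale (351 CPM in controls, 325.5 CPM after knockdown, adjusted p 0.0174). Of 29 tested genes of a list of ATF4 and its targets other than synthetases 8 fell and 8 rose. Their median log2 change was -0.00. When knockdown replicate 1 was dropped 13 rose. Of all tested genes 15.6% fell and 15.0% rose with every library, and 21.2% rose with that library dropped. The mTORC1 inhibitor DDIT4 (log2 change -0.42) and the stress factor ATF3 (-0.34) fell. The leucine transporter SLC7A5 (0.29) and its partner SLC3A2 (0.28) rose, from 4468 to 5450 CPM and from 961 to 1165 CPM. ATF4 was not among the 4 genes of smallest p in this list and is named after its value was seen.

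Of 14 tested genes for other steps of tRNA charging, editing and export, 0 fell and 0 rose with edgeR (0 higher and 1 lower before adjustment at 0.05, 0 with DESeq2). The smallest p was that of the tRNA exporter XPOT (log2 change -0.10, adjusted p 0.0787). EEF1E1, a further scaffold of the multisynthetase complex, had -0.11 (adjusted p 0.156). Both fell when knockdown replicate 1 was dropped, XPOT by 0.14 (adjusted p 6.84e-06) and EEF1E1 by 0.16 (adjusted p 0.00693). Of all tested genes 15.6% fell and 15.0% rose with every library, and 21.5% fell with that library dropped.

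Of 12 mitochondrial translation factors MTIF3, an initiation factor, fell (log2 change -0.20, adjusted p 0.0318) and 0 rose with edgeR (2 before adjustment at 0.05, 0 with DESeq2). With knockdown replicate 1 dropped, the elongation factor TUFM rose (0.12, adjusted p 6.41e-05), the recycling factor MRRF fell (-0.11, adjusted p 0.00931) and MTIF3 still fell (-0.19, adjusted p 0.00985). Of 15 mitochondrial tRNA maturation genes HSD17B10, a subunit of mitochondrial ribonuclease P, rose (0.25, adjusted p 0.00039) and 0 fell with edgeR (1 before adjustment at 0.05, 0 with DESeq2), and GTPBP3, a tRNA-modifying enzyme, rose as well when that library was dropped (0.17, adjusted p 0.0064). Of 7 tested genes listed with the cytosolic elongation factors, the kinase EEF2K among them, EEF1G rose (0.10, adjusted p 0.0169). With edgeR 0 of them fell (1 before adjustment at 0.05, 0 with DESeq2). When knockdown replicate 1 was dropped 4 rose, including EEF2K. Of all tested genes 15.0% rose and 15.6% fell with every library, and 21.2% rose and 21.5% fell with that library dropped.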

How the data were processed

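The authors deposited raw counts per gene and FPKM values for 15852 genes in 8 libraries. Reads were filtered with fastp, per the series' design text, and the build is hg38 per the submitters' processing notes; the sources used here name no aligner, counter, annotation or use of strand. The authors' FPKM equal the counts scaled by library total and 1 length per gene (110558 of 110558 values above 0, within 1e-06), so they are not independent of the counts. At the depth of each library 3 counts are 0.0854 to 0.0962 CPM, a limit that covers counting error only.

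Counts were normalized by TMM, filtered with filterByExpr (11841 genes left) and tested by quasi-likelihood in edgeR (robust), with Benjamini-Hochberg adjustment over all tested genes at 0.05. CPM use TMM-scaled library totals. The SE was taken from the size of the log2 change divided by the root of the F statistic. Levels of different genes were compared as FPKM only. The members and lists were chosen with earlier results of these data known. By rule, values per library are given for members that passed without overlap and for the highest FPKM of each compartment, and up to 4 genes by smallest p are named from each list of related genes. Values per library of FARSA, FARSB, CARS2 and FARS2 were added after seeing them. Coordinates and promoters are RefSeq's on GRCh38.p14; GC content, exon overlap and shared 75-base windows (every 25 bases) come from GENCODE v29.

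The alternatives were RLE or upper quartile scaling, testing genes of any count, or only those reaching 1 CPM in 4 libraries, a replicate block, DESeq2, limma on log2 FPKM (pseudocount 1 or 0.1 with a minimum of 0.5 FPKM in 4 libraries, or pseudocount 1 without it) and each library left out. Offsets corrected for GC content by lowess, with all libraries or without BOLA3-L knockdown replicate 1, were added after seeing the data. Steps were tested on simulated data. Tools were edgeR 4.0.16, DESeq2 1.42.0 and limma 3.58.1 in R 4.3.3, and pandas 2.3.3 in Python 3.11.15.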

Additional observations from a re-analysis of the deposited data

Results flagged for a closer look

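In 5 of 76 groups of 4 libraries (BOLA3 and the 37 genes in each group) 1 library lay so far from the others that its gap to them exceeded the critical value of Dixon's test; chance flags about 1 group in 20. FARSA stood at 147 CPM in BOLA3-L knockdown replicate 1, against 183 to 189 CPM in the other knockdown libraries. PARS2 stood at 12.1 CPM in BOLA3-L knockdown replicate 2, against 14 to 14.3 CPM. Among controls, NARS1 stood at 230 CPM in replicate 4 against 216 CPM in each of the others, HARS2 at 56.9 CPM in replicate 4 against 51.8 to 52.7 CPM, and WARS2 at 57.4 CPM in replicate 3 against 60.9 to 61.4 CPM.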

How the results depend on the processing

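BOLA3 kept its direction and call under every alternative run, and no gene of the 37 was called in opposite directions. GARS1, SARS1, TARS1, YARS1, SARS2 and WARS2 (lower) and VARS2 (higher) kept their calls in every alternative run. With limma on log2 FPKM 8 of the 37 fell with each of the 3 settings, 5 of them cytosolic (of all tested genes 12.8% fell with the minimum and 8.36% without it); the medians were -0.0402 (pseudocount 1, with or without the minimum) and -0.0407 (0.1) for the 37, -0.0703 and -0.0722 for the cytosolic and 0.0568 and 0.0627 for the mitochondrial set. AARS1, FARSB, IARS1, WARS1 and EARS2 lost their calls, with VARS1 in place of AARS1 where no minimum was set. The median of all tested genes was 0.0178 (pseudocount 1) and 0.0200 (0.1) with the minimum, 0.0023 without it and 0.0014 in the main fit. The cause of these differences was not tested.

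Leaving out 1 library at a time, 2 to 6 of the 37 rose and 8 to 14 fell, where 11.8% to 21.2% of all tested genes rose and 11.9% to 21.5% fell. In the cytosolic set 0 to 1 rose and 5 to 10 fell, and in the mitochondrial set 2 to 5 rose. The medians ran from -0.0695 to -0.0443 for the 37, from -0.1031 to -0.0768 for the cytosolic and from 0.0257 to 0.0579 for the mitochondrial set, the lowest without BOLA3-L knockdown replicate 4. With GC-corrected offsets 17 of the 37 fell and 5 rose, CARS1, FARSA, QARS1 and FARS2 joining the falls, where 21.6% of all tested genes fell and 20.2% rose. With these offsets and without BOLA3-L knockdown replicate 1, 8 of the 37 rose (20.2% of all tested genes), 2 of them cytosolic, and the mitochondrial median was 0.0353.

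Same-numbered libraries did not deviate together (correlations from -0.0444 to 0.0876, and 1 of 4 controls matched its own number best), so the numbers were not taken as pairs. With the replicate block 0 cytosolic synthetases rose, 8 fell, and 4 and 11 of the 37 rose and fell (1656 and 1736 of all 11841 tested genes); LARS1, WARS1 and EARS2 lost their calls. FARS2, at 161 to 259 counts per library, had the largest standard error of the set (0.111).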

Other observations

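The synthetases fall into 2 structural classes with unrelated catalytic folds. Leaving out EPRS1, which holds an enzyme of each class, 6 of 18 class I synthetases fell and 4 rose (median log2 change -0.04), and 6 of 16 class II synthetases fell and 1 rose (median -0.08). Of all tested genes 15.6% fell and 15.0% rose. The difference between the classes was not tested.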
